A study of Homo sapiens with 6 samples.

Results

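The Notch receptors, their Jagged ligands and their HES and HEY target genes were followed in LX-2 cells, an immortalised human hepatic stellate cell line, after knockdown of PERK. The set comprised 10 genes of the 21533 in the deposited tables, matched by gene symbol: the receptors NOTCH1, NOTCH2, NOTCH3 and NOTCH4, the ligands JAG1 and JAG2, and the target genes HES1, HES4, HEY1 and HEYL. In 3 samples the cells were transfected with PERK siRNA and in 3 with control siRNA. All 6 also received palmitic acid, a saturated fatty acid, and their RNA was taken 24 h after it. PERK, encoded by EIF2AK3, is a sensor of stress in the endoplasmic reticulum, and the series asks what it does in stellate cells in the setting of liver cancer. Cells without the fatty acid were not analysed here, so each difference is between siRNAs, in the presence of the fatty acid and in 1 cell line.

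Notch receptors are single-pass membrane proteins that are cut by furin on their way to the surface and carry sugars on their EGF-like repeats. Binding of a Jagged or Delta-like ligand on a neighbouring cell lets ADAM10 and then γ-secretase cut the receptor. The freed intracellular domain joins the DNA-binding protein RBPJ and a Mastermind co-activator in the nucleus, where RBPJ otherwise recruits co-repressors, and HES and HEY genes, which encode basic helix-loop-helix repressors, are switched on. In the liver the pathway is known for bile duct formation, and Notch signalling has been described in activated stellate cells.

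The samples held 17937141 to 19535253 total exon reads with PERK siRNA and 18560051 to 19585872 with control siRNA. Levels are given as CPM, reads scaled to library size, and the floor of 3 reads was worth 0.153 to 0.167 CPM, for counting error only. EIF2AK3 stood at 4.37, 4.96 and 5.52 CPM with PERK siRNA, against 12.9, 13.0 and 13.9 CPM with control siRNA (log2 fold change -1.42, adjusted p = 3.05e-13, edgeR), with 15.1% of its exon bases shared with antisense genes. The 14 stellate markers, led by COL1A1 and VIM, summed to 8793 to 8888 CPM with PERK siRNA and 7874 to 8152 CPM with control siRNA, with DES at 0 or 1 read and LRAT at 1 to 5. Of the 12 tested, 7 rose and 2 fell at an adjusted p under 0.05 (edgeR). Over all tested genes 69.5% passed, 34.4% as higher and 35% as lower, so the count called is near that share. ACTA2 (log2 fold change 1.95), TAGLN (1.71, with 61.3% of its reads placed uniquely) and LOX (0.90) were among those that rose. COL3A1 (-0.89) was among those that fell. The part of these marker changes in the results on Notch genes was not tested. Of 10 hepatocyte markers 7 had no read in any sample, and the list summed to 3.74 to 4.37 CPM with PERK siRNA and 4.13 to 5.44 CPM with control siRNA. Of 10 macrophage and leukocyte markers 5 had none, with sums of 72.1 to 74.8 CPM with PERK siRNA and 77.1 to 79.7 CPM with control siRNA. Most of that sum was CD68, at 64.4 to 67.0 CPM with PERK siRNA and 66.9 to 69.4 CPM with control siRNA. Of the 2 tested, CD68 did not pass and CD14 passed as lower (-0.48, adjusted p = 6.49e-05, edgeR). CD14 stood at 6.86 to 7.34 CPM with PERK siRNA and 9.61 to 10.4 CPM with control siRNA. PTPRC had 2 to 11 reads in a sample. Whether samples of 1 group were separate cultures is not stated, and every p-value here therefore reflects how these 6 samples vary, which may be technical in origin.

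Of the 10 genes, 9 had enough reads to be tested and 8 passed at an adjusted p under 0.05 by edgeR's quasi-likelihood test, with p-values adjusted by Benjamini and Hochberg over all 12973 genes tested. NOTCH1, NOTCH3, JAG2 and HES4 were higher with PERK siRNA, and NOTCH2, JAG1, HES1 and HEY1 were lower. NOTCH4 did not pass, and HEYL was below the expression filter. The count has to be read against a wide background: 69.5% of all tested genes passed, 34.4% as higher and 35% as lower. For all of the 8 called genes the 3 samples of one group lay above the 3 of the other, as they did for 71.8% of tested genes. The median of the absolute log2 fold change was 0.50 over the 9 tested members and 0.28 over all tested genes. Against a null of a 1.2-fold change 7 of the 9 passed, all called genes but NOTCH2, where 36.1% of tested genes did. The members were chosen with earlier results of these data known, so these differences from the background are not a test of the set.

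**Figure D1:**
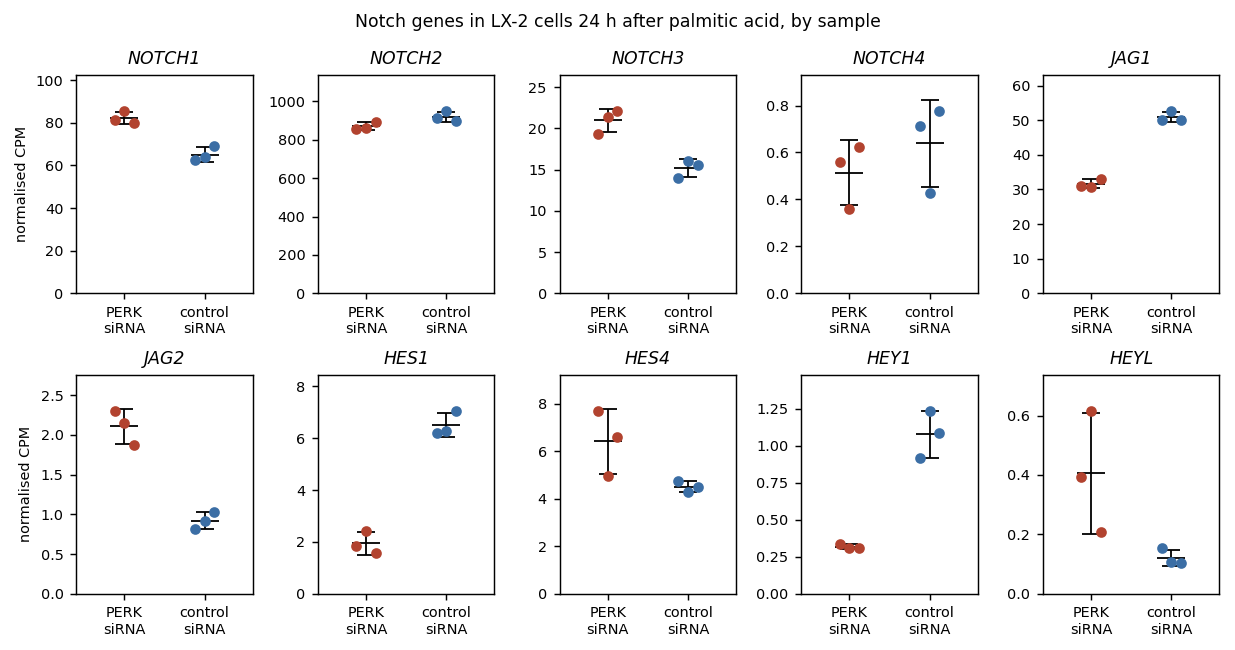
Normalised CPM of the 10 genes in each sample (points), with the group mean and SD (bars, n = 3), PERK siRNA on the left and control siRNA on the right of each panel; each vertical axis is linear and starts at 0. The HES1 samples with PERK siRNA sit between 1.56 and 2.41 CPM, below the control siRNA samples at 6.21 to 7.04 CPM, while the HES4 samples with PERK siRNA, at 4.96 to 7.68 CPM, lie above the control siRNA samples.

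The largest differences among the 9 tested genes were those of HES1 and HEY1, the main transcriptional read-outs of the pathway in many cell types. HEYL, below the expression filter, was higher with PERK siRNA by a ratio of 3.35 in summed counts, from few reads. HES1 (ENSG00000114315; chromosome 3, 194136145 to 194138732, plus strand, GRCh38) encodes a repressor that also binds its own promoter. It stood at 1.85, 2.41 and 1.56 CPM with PERK siRNA, from 33, 47 and 30 reads, against 6.21, 6.27 and 7.04 CPM with control siRNA, from 122, 117 and 136 reads. All PERK siRNA samples were low, and the highest of them was under every control siRNA sample. HES1 averaged 1.94 ± 0.43 CPM with PERK siRNA and 6.51 ± 0.46 CPM with control siRNA (SD, n = 3 each), or 29.8% of the control siRNA level. In bulk RNA, fewer cells that express a gene and less of its RNA per cell cannot be told apart. The log2 fold change was -1.74 (SE 0.16, adjusted p = 5.36e-11, edgeR). Only 1.05% of the tested genes had a log2 fold change as low or lower.

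HEY1 (ENSG00000164683; chromosome 8, 79764010 to 79767863, minus strand), which encodes the HES-related repressor best known from vessels and heart, fell by a like amount on the log2 scale, at a far lower level. It had 6 reads in each PERK siRNA sample, or 0.34, 0.31 and 0.31 CPM, against 18, 23 and 21 reads, or 0.92, 1.23 and 1.09 CPM, in the control siRNA samples. The groups did not overlap. HEY1 averaged 0.319 ± 0.016 CPM with PERK siRNA and 1.08 ± 0.16 CPM with control siRNA (SD, n = 3 each). The log2 fold change was -1.74 (SE 0.36, adjusted p = 9.05e-05, edgeR). Summed over samples the ratio of PERK siRNA to control siRNA was 0.296, with an exact 95% interval of 0.165 to 0.506 that covers counting error only. The ratio of HEY1 to HES1 in TPM, a transcript level per length, was 0.048 to 0.075 with PERK siRNA and 0.055 to 0.073 with control siRNA, so the groups overlapped (exact permutation test, two-sided, p = 0.9).

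HES4 (ENSG00000188290; chromosome 1, 998962 to 1000172, minus strand), a HES1-like repressor gene that mouse lacks, went the other way. It stood at 7.68, 4.96 and 6.61 CPM with PERK siRNA, from 137, 97 and 127 reads, against 4.73, 4.29 and 4.50 CPM with control siRNA, from 93, 80 and 87 reads. PERK siRNA sample 2 was the lowest of its group and lay just above the highest control siRNA sample. HES4 averaged 6.42 ± 1.37 CPM with PERK siRNA and 4.51 ± 0.22 CPM with control siRNA (SD, n = 3 each). The log2 fold change was 0.50 (SE 0.14, adjusted p = 0.00234, edgeR), and 0.66 without PERK siRNA sample 2 but 0.36 without PERK siRNA sample 1.

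HEYL (ENSG00000163909; chromosome 1, 39624153 to 39639945, minus strand), another gene of the HEY family, was close to the floor with PERK siRNA. With control siRNA it was at or below the floor. It had 7, 12 and 4 reads with PERK siRNA, against 3, 2 and 2 reads with control siRNA. Every PERK siRNA sample had more reads than any control siRNA sample, by as little as 1 read. The summed counts, 23 with PERK siRNA and 7 with control siRNA, gave a ratio of 3.35 with an exact 95% interval of 1.39 to 9.23, for counting error only. With no expression filter the log2 fold change was 1.68 at an adjusted p of 0.0268 (edgeR). That fit gave JAG1 an adjusted p of 9.1e-46, against 1.17e-13 in the main fit, and NOTCH4 0.551, against 0.464 (edgeR). The HEYL value is thus not comparable with those of the main fit.

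The groups did not overlap in the make-up of the 4 target mRNAs. HES1 made up 13.4, 23.4 and 13.3% of their summed TPM in the PERK siRNA samples, against 45.1, 47.3 and 49.2% in the control siRNA samples. HES4 made up 84.5, 73.2 and 85.1% with PERK siRNA, against 52.0, 48.9 and 47.7% with control siRNA. The ratio of HES4 to HES1 in TPM was 3.13 to 6.41 with PERK siRNA and 0.969 to 1.15 with control siRNA. The exact two-sided permutation p was 0.1 for each of these measures, the smallest that 3 against 3 samples can give. In TPM, HES1 was lower and HES4 higher without overlap, so the ratio had to separate. The ratio and the shares thus restate the results of these genes and are not a further test. The summed TPM of the 4 genes was 26.3 ± 3.69 with PERK siRNA and 30.5 ± 0.90 with control siRNA (SD, n = 3 each), where PERK siRNA sample 1 lay within the range of the control siRNA samples (exact permutation p = 0.2).

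The sequences upstream of the RefSeq starts of HES1 and HES4 are shown because the mRNAs moved in opposite directions. Both windows hold TGGGAA, the core of the known RBPJ recognition sequence, at nearly the same distance from that start. They are the 250 bases before the start that RefSeq gives on GRCh38.p14, 5′ to 3′ on the strand of the gene, at chr3:194135898-194136147 for HES1 and chr1:1000098-1000347 for HES4. Capitals mark matches, on either strand, to that core, to the longer form GTGGGAA that contains it, or to a related form. The related form, GTGTGAA, does not contain the core and appears in both windows as its reverse complement, which reads TTCACAC.
HES1: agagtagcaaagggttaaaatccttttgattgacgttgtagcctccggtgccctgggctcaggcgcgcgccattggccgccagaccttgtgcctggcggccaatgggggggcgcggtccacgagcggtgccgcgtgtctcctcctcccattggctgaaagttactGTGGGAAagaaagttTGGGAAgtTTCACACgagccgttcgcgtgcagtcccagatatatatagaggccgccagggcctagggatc
HES4: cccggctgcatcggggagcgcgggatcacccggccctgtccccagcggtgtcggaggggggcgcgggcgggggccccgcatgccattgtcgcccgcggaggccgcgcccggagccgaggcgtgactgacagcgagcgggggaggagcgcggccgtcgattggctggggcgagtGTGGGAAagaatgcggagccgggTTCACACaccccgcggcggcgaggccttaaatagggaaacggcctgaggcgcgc
Both windows held GTGGGAA on the gene's own strand, from 85 to 79 bases before the start in HES1 and from 77 to 71 before it in HES4. Both held GTGTGAA on the opposite strand downstream of it, at 62 to 56 and at 54 to 48 bases before the start. HES1 had a further TGGGAA between them, at 70 to 65. The longest run that the windows shared, TGTGGGAAAGAA, had 12 bases and contained the first match. These positions hold for the RefSeq starts only. In the GENCODE v29 annotation the 5′ end of HES4 is at chr1:1000172, inside its window. There the HES4 GTGGGAA match spans the 5′ end and the GTGTGAA match lies within the gene. HES1 begins at chr3:194136145 in that annotation, at the end of its window.

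The motif search covered 300 bases per gene, 250 before and 50 after the RefSeq start, for the 9 members with an entry, which left out HEY1. TGGGAA was present for 3 of 3 HES and HEY genes and for 0 of 6 receptors and ligands, and in 24% of all 35116 promoter windows of that length. GTGGGAA was present for the same 3 genes, HEYL on the opposite strand, and in 6.25% of all windows. GTGTGAA was present for HES1 and HES4 and in 3% of all windows; it was searched after the sequences had been seen. A match describes letters only, and genes with a match were among those that fell and those that rose.

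Among the receptors, NOTCH2 dominated in both groups. NOTCH2 (ENSG00000134250; chromosome 1, 119911553 to 120069626, minus strand) had 15235, 16864 and 17140 reads, or 854.0, 863.1 and 891.8 CPM, in the PERK siRNA samples, against 17903, 17696 and 17362 reads, or 910.6, 949.1 and 898.9 CPM, in the control siRNA samples. The highest PERK siRNA sample lay just below the lowest control siRNA sample. The log2 fold change was -0.08 (SE 0.025, adjusted p = 0.00545, edgeR), and the call was lost against a 1.2-fold null (adjusted p = 1). Of its reads 97.3% were placed uniquely.

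NOTCH1 (ENSG00000148400; chromosome 9, 136494433 to 136545786, minus strand), the receptor often mutated in T-cell leukaemia, was higher. It stood at 81.3, 85.5 and 80.1 CPM with PERK siRNA, against 62.4, 64.0 and 68.9 CPM with control siRNA. The groups were well apart, with means of 82.3 ± 2.84 CPM with PERK siRNA and 65.1 ± 3.41 CPM with control siRNA (SD, n = 3 each). The log2 fold change was 0.34 (SE 0.04, adjusted p = 1.2e-08, edgeR). A log2 fold change as high or higher was found for 21.9% of tested genes.

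NOTCH3 (ENSG00000074181; chromosome 19, 15159038 to 15200981, minus strand), the receptor typical of pericytes and vascular smooth muscle, was higher as well. It stood at 19.3, 21.4 and 22.1 CPM with PERK siRNA, against 14.0, 16.1 and 15.6 CPM with control siRNA. Every PERK siRNA sample was above every control siRNA sample. The log2 fold change was 0.46 (SE 0.07, adjusted p = 1.52e-06, edgeR).

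NOTCH4 (ENSG00000204301; chromosome 6, 32194843 to 32224067, minus strand), known mainly from endothelium, was scarce. It had 10, 7 and 12 reads with PERK siRNA, against 14, 8 and 15 reads with control siRNA. The groups overlapped, and the log2 fold change was -0.32 (SE 0.38, adjusted p = 0.464, edgeR). The ratio of summed counts was 0.798 with an exact 95% interval of 0.473 to 1.33, so a difference was not detectable at this depth.

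Per length, the 4 receptors summed to 266.4 ± 5.90 TPM with PERK siRNA and 272.6 ± 8.77 TPM with control siRNA (SD, n = 3 each; exact permutation p = 0.5). Within that sum the share of NOTCH3 was 2.92, 3.18 and 3.21% with PERK siRNA, against 2.06, 2.27 and 2.30% with control siRNA. The share of NOTCH1 was 10.8, 11.2 and 10.2% with PERK siRNA, against 8.09, 7.96 and 8.94% with control siRNA. The share of NOTCH2 was 86.1 ± 0.44% with PERK siRNA and 89.3 ± 0.63% with control siRNA (SD, n = 3 each). None of these groups overlapped, and each share had an exact permutation p of 0.1, the smallest possible. NOTCH1 and NOTCH3 were higher and NOTCH2 lower without overlap, so these shares largely restate the results of the genes.

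**Figure D2:**
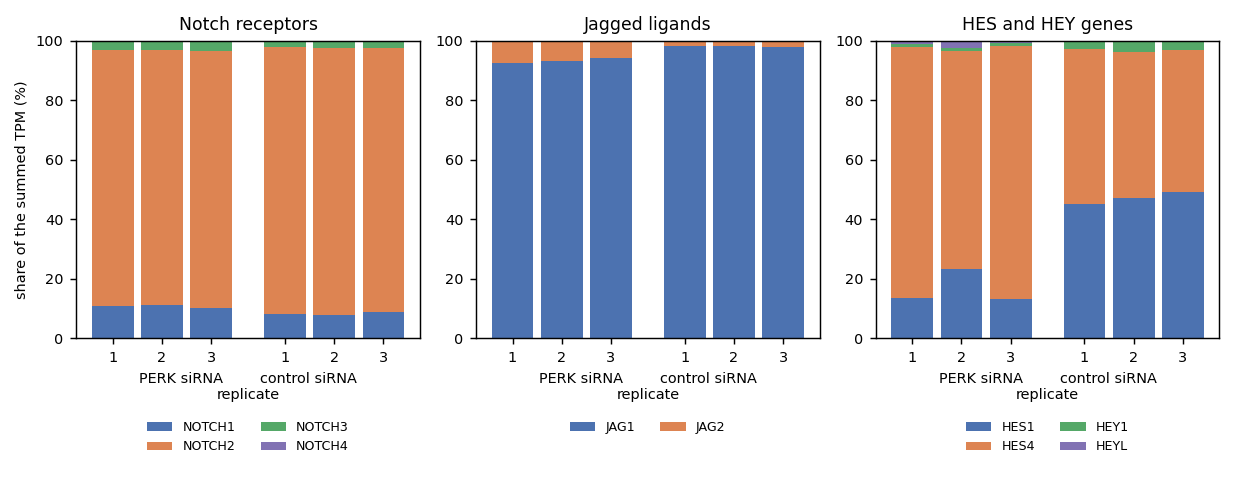
Share of each gene in the summed TPM of the Notch receptors (left), the Jagged ligands (middle) and the HES and HEY genes (right), in percent, 1 bar for each sample with PERK siRNA samples on the left of each panel. NOTCH2 and JAG1 fill most of every bar in their panels, while the HES1 share is 13.3 to 23.4% with PERK siRNA and 45.1 to 49.2% with control siRNA.

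The Jagged ligands moved in opposite directions. JAG1 (ENSG00000101384; chromosome 20, 10637684 to 10673999, minus strand), the ligand mutated in Alagille syndrome, in which bile ducts are too few, stood at 30.9, 30.9 and 33.1 CPM with PERK siRNA, against 50.1, 52.7 and 50.01 CPM with control siRNA. The PERK siRNA samples lay close together and far below the control siRNA samples. JAG1 averaged 31.6 ± 1.28 CPM with PERK siRNA and 50.9 ± 1.52 CPM with control siRNA (SD, n = 3 each), and its log2 fold change was -0.69 (SE 0.05, adjusted p = 1.17e-13, edgeR). A log2 fold change as low or lower was found for 8.2% of tested genes.

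JAG2 (ENSG00000184916; chromosome 14, 105140981 to 105168824, minus strand), the second Jagged ligand, was rare in these cells. It had 41, 42 and 36 reads, or 2.30, 2.15 and 1.87 CPM, with PERK siRNA, against 16, 17 and 20 reads, or 0.81, 0.91 and 1.04 CPM, with control siRNA. The groups did not overlap, and the log2 fold change was 1.19 (SE 0.25, adjusted p = 9.57e-05, edgeR). A log2 fold change as high or higher was found for 2.77% of tested genes. Of the JAG2 exon bases in GENCODE v29, 7.33% are shared with a non-coding transcript on the same strand, so part of its few reads may belong there.

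JAG1 was the bulk of the Jagged mRNA in both groups. It accounted for 92.7, 93.1 and 94.3% of the summed Jagged TPM with PERK siRNA, against 98.3, 98.2 and 97.9% with control siRNA. The Jagged sum was 19.0 ± 0.57 TPM with PERK siRNA and 29.3 ± 1.08 TPM with control siRNA (SD, n = 3 each). Both the share and the sum had an exact permutation p of 0.1, the smallest possible. JAG1 was lower and JAG2 higher without overlap, so the share had to separate, and the sum was mostly JAG1. Neither is a further test.

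On the per-length scale the levels with PERK siRNA ran from NOTCH2 at 229.3 ± 5.34 TPM over NOTCH1 (28.6 ± 1.16), HES4 (21.4 ± 4.44), JAG1 (17.7 ± 0.69), NOTCH3 (8.27 ± 0.60) and HES1 (4.28 ± 0.97) to JAG2 (1.25 ± 0.13; SD, n = 3 each). HEYL, NOTCH4 and HEY1 followed with overlapping samples, at 0.527 TPM or less, and HES4 and JAG1 overlapped too. With control siRNA the order was NOTCH2 at 243.6 ± 8.93 TPM, then JAG1 (28.7 ± 1.08), NOTCH1 (22.7 ± 1.08), HES4 (15.1 ± 0.67), HES1 (14.4 ± 0.94) and NOTCH3 (6.03 ± 0.45; SD, n = 3 each). HEY1 (0.892 ± 0.14), JAG2 (0.550 ± 0.064), NOTCH4 (0.330 ± 0.093) and HEYL (0.104 ± 0.023) came last, and of all neighbours in that order only HES4 and HES1 had overlapping samples. HES1 thus lay below NOTCH3 with PERK siRNA and above it with control siRNA.

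**Figure D3:**
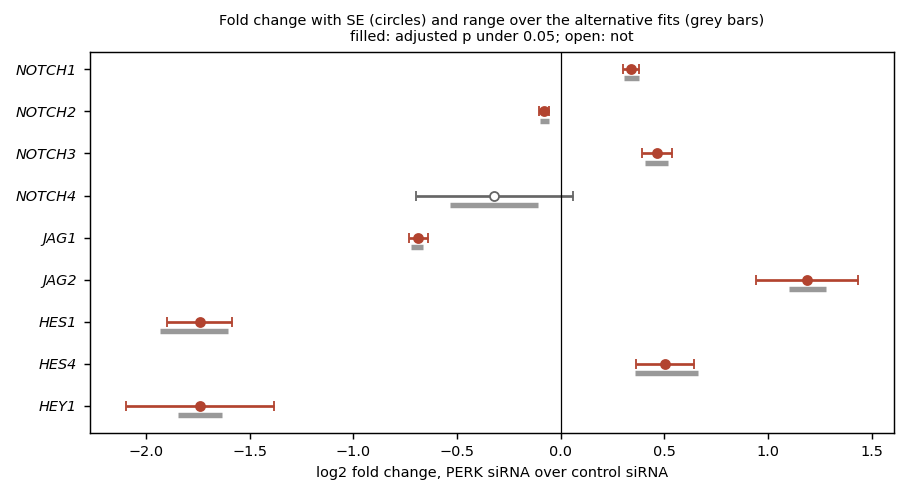
Log2 fold change of PERK siRNA over control siRNA for the 9 tested genes (circles, filled where the adjusted p was under 0.05) with its SE, and the range over the alternative fits (grey bars). HES1 and HEY1 lie furthest left at -1.74 and JAG2 furthest right at 1.19, and no range crosses 0, that of NOTCH4 included, which did not pass in any fit.

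Around these 10 genes, 92 other genes of the pathway were followed in lists by role, of which 78 were tested, 28 rose and 35 fell. This is 80.8% of those tested, against 69.5% of all genes, and the median of the absolute log2 fold change was 0.38 against 0.28. Past a 1.2-fold null were 51.3% of them, against 36.1% of all genes. The lists, like the members, were chosen with earlier results of these data known. These comparisons with all genes, and those for each list below, are therefore not a test of the pathway.

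RBPJ (ENSG00000168214; chromosome 4, 26163455 to 26435131, plus strand), the DNA-binding protein through which all 4 receptors act on their canonical targets, had the largest change among the tested genes of the nuclear list. It stood at 283.2, 275.9 and 284.6 CPM with PERK siRNA, against 78.5, 82.1 and 77.9 CPM with control siRNA. The groups were 3.54-fold apart, and the log2 fold change was 1.82 (SE 0.03, adjusted p = 2.2e-28, edgeR). Only 0.586% of tested genes had a log2 fold change as high or higher. The ratio of RBPJ to HES1 in TPM was 19.0 to 30.1 with PERK siRNA and 1.83 to 2.16 with control siRNA.

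Of the 21 genes of the nuclear complex and its co-repressors, all tested, 10 rose and 9 fell, or 90.5% called against 69.5% of all genes. The Mastermind co-activator gene MAML1 rose (log2 fold change 0.67), as did the co-repressor gene CTBP2 (0.74). The Mastermind gene MAML3, chosen after its values were seen, fell to 4.59 ± 0.74 CPM with PERK siRNA, against 12.8 ± 0.20 CPM with control siRNA (SD, n = 3 each; -1.48), and MAML2, chosen likewise, had a log2 fold change of 0.13 that passed (adjusted p = 0.0125, edgeR) but not against the 1.2-fold null (adjusted p = 1). Of the CTBP2 exon bases 34.7% are shared with other genes.

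Of 9 tested genes of receptor cleavage 5 fell and 1 rose, or 66.7% called against 69.5% of all genes. Past the 1.2-fold null were FURIN, ADAM10 and APH1A, or 33.3% against 36.1% of all genes, so the list stood near the background. FURIN, the protease of the first cut, fell to 97.4 ± 3.01 CPM with PERK siRNA, against 262.1 ± 6.78 CPM with control siRNA (SD, n = 3 each; -1.43, adjusted p = 6.48e-26, edgeR). ADAM10, the protease of the ligand-induced cut, fell to 129.5 ± 4.27 CPM with PERK siRNA, against 218.0 ± 2.62 CPM with control siRNA (SD, n = 3 each; -0.75, adjusted p = 1.13e-19, edgeR). The γ-secretase subunit gene APH1A rose (0.37), with 14.1% of its exon bases shared with another gene. The subunit gene PSENEN fell (-0.30), but 56.5% of the PSENEN exon bases are shared with other genes and 61.2% of its reads were placed uniquely. PSEN2, named after its values were seen, was also among the falls (-0.18, adjusted p = 0.0391, edgeR). No more than 5.61% of the PSEN2 reads had a unique place, so that call is uncertain.

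Of 10 tested genes that add sugars to the receptors 5 fell and 3 rose, or 80% called against 69.5% of all genes, and 40% against 36.1% past the 1.2-fold null. POFUT1, which adds the O-fucose that ligand binding needs, fell to 86.9 ± 1.93 CPM with PERK siRNA, against 165.2 ± 2.22 CPM with control siRNA (SD, n = 3 each; -0.93). EOGT, which adds O-GlcNAc to EGF-like repeats, fell to 12.6 ± 0.96 CPM with PERK siRNA, against 43.9 ± 0.56 CPM with control siRNA (SD, n = 3 each; -1.80). The O-glucosyltransferase gene POGLUT2 (-0.70) and the xylosyltransferase gene GXYLT2 (-1.10) fell too. The risers, named after their values were seen, were POGLUT3 (0.18), RFNG (0.29) and XXYLT1 (0.13), none of them past the 1.2-fold null.

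Of the other ligand genes only 4 of 9 were tested. DLL1, a Delta-like ligand, had 54, 88 and 90 reads with PERK siRNA, against 24, 24 and 33 reads with control siRNA, and its log2 fold change was 1.54 (SE 0.21, adjusted p = 1.42e-07, edgeR). DNER, which encodes a Delta- and Notch-like transmembrane protein, fell (-1.27), DLK2 rose (0.47), and CNTN1 did not pass (-0.14, adjusted p = 0.643). DLL4, the endothelial ligand, chosen after its values were seen, had 25 reads in each group in sum. The 10 endothelial markers summed to 13.5 to 15.1 CPM with PERK siRNA and 22.3 to 23.3 CPM with control siRNA, with 2 of them at 0 throughout. Of the 4 tested, only PECAM1 passed, as lower (-3.80), where 69.5% of all tested genes passed. Most of the difference in the sums was PECAM1, at 0.50 to 0.72 CPM with PERK siRNA and 8.90 to 9.00 CPM with control siRNA. KDR (0.44) was higher and TIE1 (-0.15) lower without overlap, and neither passed. ERG, not tested, had 20, 19 and 9 reads with PERK siRNA, against 0, 6 and 6 reads with control siRNA. The 8 cholangiocyte markers summed to 101.4 to 113.2 CPM with PERK siRNA and 142 to 153 CPM with control siRNA, with 2 at 0. Among the 4 tested, 1 was higher and 2 were lower, where 69.5% of all tested genes passed. Most of that sum was SOX9, also in the list of Notch target genes, at 79.3 to 90.7 CPM with PERK siRNA and 117 to 128 CPM with control siRNA. For these markers, too, a part in the Notch results was not tested.

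Genes that act on ligand uptake and receptor turnover gave 7 rises and 5 falls among 15 tested, or 80% called against 69.5% of all genes, of which 34.4% were higher and 35% lower. NEURL1B, whose mouse counterpart is a ubiquitin ligase for Notch ligands, rose to 179.0 ± 1.23 CPM with PERK siRNA, against 89.7 ± 4.32 CPM with control siRNA (SD, n = 3 each; 1.00). The endocytic adaptor gene EPN1 (0.21) and DTX3L (0.49), a relative of the Deltex genes, rose. ITCH, a ubiquitin ligase for Notch, fell (-0.57), with 50.5% of its reads placed uniquely. NUMB, which encodes an inhibitor of Notch, rose (0.40), and FBXW7, whose product marks the Notch intracellular domain for decay, fell (-0.58); these 2 were picked with their values known.

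Other genes reported as Notch targets in one tissue or another did not move as a block. Of 12 tested, 3 rose and 7 fell, or 83.3% called against 69.5% of all genes, with a median log2 fold change of -0.41 against 0.0038 over all genes. The cell cycle inhibitor gene CDKN1A (-1.20) and the matrix gene TNC (-0.41) fell, and CCND1, encoding cyclin D1 (0.45), and ID3 (0.64) rose, with 10.3% of the CCND1 exon bases shared with another gene. NRARP, a feedback inhibitor of the pathway chosen after its values were seen, had 12, 16 and 14 reads with PERK siRNA, against 19, 17 and 21 reads with control siRNA, and did not pass (-0.41, adjusted p = 0.224). Of the related basic helix-loop-helix genes 3 of 9 were tested. BHLHE40, a repressor gene of the clock and hypoxia response that is related to the HES family, fell to 30.5 ± 0.92 CPM with PERK siRNA, against 125.5 ± 0.95 CPM with control siRNA (SD, n = 3 each; -2.04), and BHLHE41 fell as well (-1.23). HES6, whose mouse counterpart opposes HES1, did not pass (-0.06, adjusted p = 0.342). HES5, chosen after its values were seen, had no read in any sample.

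**Figure D4:**
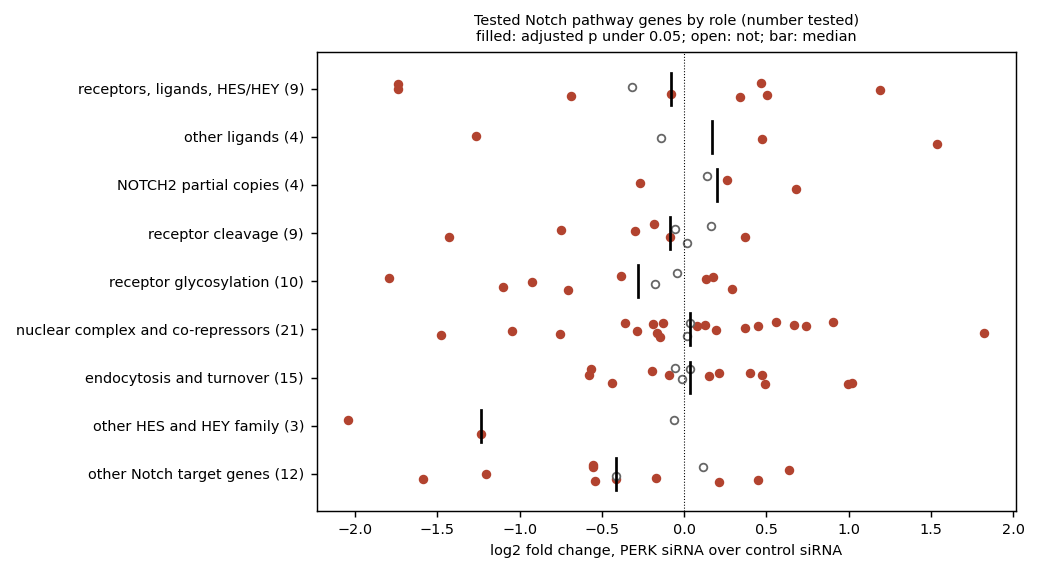
Log2 fold change of PERK siRNA over control siRNA for each tested gene of the pathway, by role, with the number tested in parentheses; filled points passed at an adjusted p under 0.05, open points did not, and the bar is the median of the list. Most lists hold genes on both sides of 0, with RBPJ at 1.82 furthest right and BHLHE40 at -2.04 furthest left.

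The partial copies of NOTCH2 were measured with little certainty. NOTCH2NLA fell (-0.27, adjusted p = 4.31e-06, edgeR), but no more than 11.8% of its reads had a unique place, and on unique exon reads its log2 fold change was 0.09 (adjusted p = 0.507). For NOTCH2NLB (0.26), NOTCH2NLC (0.14, adjusted p = 0.223) and NOTCH2NLR (0.68) the uniquely placed share was 8.88, 20.6 and 9.00%. NOTCH2NLB and NOTCH2NLR passed as higher, the first with its call lost on unique exon reads (adjusted p = 0.364) and without PERK siRNA sample 2 (adjusted p = 0.0948). NOTCH2NLR was not tested on unique exon reads. The split of reads between these genes and NOTCH2 rests on the authors' counting.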

How the data were processed

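RNA was measured in 6 samples, 3 with PERK siRNA and 3 with control siRNA, grouped by the sample titles. Libraries were made with a directional kit, per the labels' protocols, and the submitters' processing notes name hg38 as the build. For the aligner, the counter, the annotation release and the use of strand, the sources used here give nothing. The deposited tables hold, per the file headers, 2 read counts for each gene (total exon reads and unique exon reads), its exon length and the authors' TPM, which matched reads per length to a relative difference of 7.1e-08. TPM served for levels between genes and for shares, with exact two-sided permutation tests.

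Total exon reads were tested with edgeR 4.0.16 (quasi-likelihood, TMM factors, default expression filter, robust dispersion, R 4.3.3), tested on simulated data, on 12973 genes. CPM are normalised by the TMM factors. Replicates differed by more than sampling noise (chi-square per degree of freedom 1.64 to 2.30 within groups), so none was taken for a copy. Alternatives were other scalings, filters and nulls, a threshold of 0.01, DESeq2 1.42.0, limma-voom (limma 3.58.1), a replicate block, unique exon reads and leaving out each sample. Places came from GENCODE v29 (GRCh38, the assembly of hg38), promoters from RefSeq. The members and lists were chosen with earlier results of these data known. The genes named were the 10 members, EIF2AK3, RBPJ and, per list, up to 4 genes lowest in adjusted p, except what is not reported here; others are said to be chosen after their values were seen or are markers.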

Additional observations from a re-analysis of the deposited data

How the results depend on the processing

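The 8 calls among the 10 Notch genes kept their direction in every alternative that tested them. The count was 7 with at least 1 CPM in 3 samples, where HEY1 was not tested, and 9 with no filter, where HEYL was added. Against a 1.2-fold null it was 7, without NOTCH2. There 4689 of all genes passed (2345 higher, 2344 lower) and 40 of the pathway genes (18 higher, 22 lower), fewer because that null is stricter. Of the pathway genes named, NOTCH2NLA, NOTCH2NLB, PSENEN, PSEN2, EPN1, MAML2, POGLUT3, RFNG and XXYLT1 lost their calls there as well. Leaving out 1 sample gave 8 member calls each time, 58 to 61 pathway calls and 8543 to 8721 calls over all genes. NOTCH2NLA turned to 0.089 on unique exon reads, a setting that drops most of its reads. With the replicate number as a block 8 members, 63 pathway genes and 9003 genes in all passed, against 8, 63 and 9014 without it. The block changed no call among the 41 genes followed through the alternatives, which leave out those picked with their values known and the markers. The labels link same-numbered samples only by that number. Deviations of same-numbered samples from their group means correlated at 0.011, -0.032 and -0.029, which cannot show whether they shared a culture or batch. The shares of NOTCH3 and JAG1 were recomputed on unique exon reads, on reads not divided by length and without each sample, and kept their direction there; the other alternatives do not bear on a share. Depth limits HEY1, HEYL, NOTCH4 and JAG2, each with under 50 reads in every sample.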
